A study of Mus musculus with 22 samples.

Results

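Primary tumor cells grown alone (3 libraries) were compared with early lesion cells grown alone (3 libraries), 6 of the 22 libraries of the series. The features compared were genes, matched by symbol between the 2 tables that hold the primary tumor and the early lesion experiment. Of 32544 symbols, 22715 were kept, and 13839 of those had enough counts to be tested. Left out were 9703 pseudogenes, 86 ribosomal protein genes, 13 mitochondrially encoded genes and 27 symbols that a spreadsheet had turned into dates. Both groups were primary mammary cells of MMTV-HER2 mice, a breast cancer model in which the MMTV promoter drives a HER2 transgene mainly in mammary epithelium. The primary tumor cells are labelled as epithelial tumor cells and the early lesion cells as epithelium, and both were kept for 7 days on gelled Matrigel, in medium that held horse serum, hydrocortisone, insulin and EGF. The number and age of the mice behind each library, and whether mice were pooled, are not given in the labels, which call the replicates biological. 2 further sets of libraries served for comparison: the same cells sorted from co-culture with alveolar macrophages (3 primary tumor and 3 early lesion libraries), and wildtype FVB alveolar macrophages grown alone in the primary tumor experiment (3 libraries) and in the early lesion experiment (2 libraries).

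HER2, encoded by Erbb2, is a receptor tyrosine kinase that forms dimers with other ErbB receptors and signals to growth through the MAP kinase and PI3 kinase pathways. The normal mammary duct has an inner luminal layer, which makes milk proteins in lactation, and an outer basal layer of contractile myoepithelial cells that sits on a basement membrane of laminins and type IV collagen. In MMTV-HER2 mice, ducts first form hyperplastic and in situ lesions, and invasive carcinomas follow later. Matrix, proteases, cytokines and lineage programs are among the features known to differ between normal, premalignant and malignant mammary tissue.

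Stage and experiment coincided: all primary tumor libraries came from one table and all early lesion libraries from the other, so a difference between stages and a difference between experiments cannot be told apart. The macrophages came from wildtype mice in both experiments, and a gene is described here as marked when it passed the test in the same direction between the 2 mono-cultured macrophage groups. Macrophages differed between the experiments in 7036 of 12219 genes (57.6%), 27.4% higher and 30.2% lower in the primary tumor experiment. Total counts were 27100741 to 27595567 in primary tumor libraries and 30649361 to 43725724 in early lesion libraries, and mitochondrially encoded genes took 2.86 to 3.52% of them in primary tumor cells and 3 to 3.38% in early lesion cells. The macrophages of the primary tumor experiment stood apart, with 65.7 to 72.7% mitochondrially encoded counts, against 3.38 to 3.53% in those of the early lesion experiment. A single gene, Grip2, took 1.08 to 5.84% of the counts in primary tumor cells and 0.0233 to 0.0739% in early lesion cells. Ribosomal protein genes took 4.59 to 4.83% in primary tumor cells and 3.09 to 3.24% in early lesion cells. The fold change also moved with transcript length: its median was 0.17 on the log2 scale in the fifth of genes with the shortest exons and -0.21 in the fifth with the longest, and in macrophages the trend ran the opposite way (-0.46 and 0.46). The part of the experiment in the results below was not tested, and the marks do not measure it. With so many genes called in macrophages, a mark is read against 27.4% for increases and 30.2% for decreases. A gene not tested in macrophages could not be marked, which held for 1461 of the genes called in mammary cells. Without either of the 2 macrophage libraries of the early lesion experiment, fewer genes were marked, 1439 and 1446 in place of 2171.

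Most genes differed between the stages. Of the 13839 genes tested, 4612 were higher in primary tumor cells (33.3%) and 4814 were lower (34.8%) at an adjusted p under 0.05 (edgeR quasi-likelihood test, Benjamini-Hochberg adjustment over all symbols tested), so 68.1% were called. The 2 groups of 3 libraries did not overlap in 73.6% of genes. Large changes were mostly decreases: 769 genes (5.56%) were higher by at least 1 on the log2 scale and 2192 (15.8%) were lower by at least 1. The median log2 fold change over all genes tested was -0.01. In co-cultured cells the same comparison called 8887 of 13627 genes (65.2%), 31.4% higher and 33.8% lower. Of the mono-culture calls tested there, 82.4% were called in the same direction. A call repeated in co-culture is read against that share, and the 2 sets of libraries are not independent, as described below. Of the mono-culture calls, 2171 (15.7% of the genes tested) were marked and 2517 (18.2%) were called the opposite way in macrophages. Fold changes are primary tumor over early lesion, on the log2 scale with their standard error, and levels are CPM, counts scaled to library size by TMM normalization, with libraries in the order of their replicate numbers 1, 2 and 3. Averages are given ± SD over 3 libraries. With a share called this high, a count of called genes in a group is read against 33.3% for increases and 34.8% for decreases.

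Both groups carried the markers of mammary epithelium that their labels give. Epcam, an epithelial adhesion molecule, had 723, 654 and 752 CPM in primary tumor cells, against 701, 744 and 727 CPM in early lesion cells, and the groups overlapped. Krt8, a luminal keratin, had 1159.8, 1064 and 1075 CPM in primary tumor cells, against 1300.0, 1117 and 1056 CPM in early lesion cells. Krt14, a basal keratin, had 2759, 2389 and 2965 CPM in primary tumor cells, against 2946, 2432 and 2586 CPM in early lesion cells. Erbb2 was at 5087, 5297 and 4483 CPM in primary tumor cells, against 3394, 5516 and 3644 CPM in early lesion cells, and did not pass the test (log2 fold change 0.24 ± 0.19, adjusted p = 0.278). The species of the HER2 transgene is not given in the labels, so reads of the transgene may be among these counts.

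The genes with the largest increases, among those at 10 CPM or more in the higher group, with groups that did not overlap, and not marked, were Npy, A2m, Comp, Igfbp2, Lalba, Rbp7, Srgn, Krt15, Lef1 and Cdh19. Npy, which encodes the secreted neuropeptide Y, had 15.8, 13.6 and 3.86 CPM in primary tumor cells, against 0.107, 0.0837 and 0 CPM in early lesion cells, and its groups did not overlap although primary tumor library 3 was the lowest of its group (log2 fold change 7.29 ± 0.86, adjusted p = 0.000348). A2m, the protease inhibitor alpha-2-macroglobulin, had 210.4, 133 and 125 CPM in primary tumor cells, against 1.15, 2.66 and 2.98 CPM in early lesion cells. Krt15, a keratin of basal and progenitor epithelial cells, had 123, 120.4 and 164 CPM in primary tumor cells, against 6.8, 6.74 and 6.83 CPM in early lesion cells, a narrow range within each group (4.32 ± 0.14, adjusted p = 1.01e-06). Lef1, a transcription factor that acts with beta-catenin at Wnt target genes, had 17.7, 23.3 and 44.2 CPM in primary tumor cells, against 1.37, 1.36 and 1.74 CPM in early lesion cells. Igfbp2, a binding protein for insulin-like growth factors, was uneven among primary tumor libraries: it had 101, 33.7 and 21.2 CPM in primary tumor cells, against 1.93, 1.93 and 2.45 CPM in early lesion cells. Comp, a matrix protein of cartilage and tendon, had 11.1, 7.37 and 22 CPM in primary tumor cells, against 0.161, 0.377 and 0.295 CPM in early lesion cells. Srgn, the granule proteoglycan serglycin of blood cells, had 5.47, 16.2 and 20.1 CPM in primary tumor cells, against 0.669, 0.67 and 0.62 CPM in early lesion cells. Rbp7, a retinol-binding protein, averaged 14.4 ± 8.27 CPM in primary tumor cells and 0.623 ± 0.236 CPM in early lesion cells. Cdh19, a cadherin of the Schwann cell lineage, had 11.5, 15 and 13.8 CPM in primary tumor cells, against 0.642, 1.09 and 0.827 CPM in early lesion cells. All 10 were also called higher in co-cultured primary tumor cells, by 3.64 (Cdh19) to 6.04 (A2m).

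Among the marked genes the largest increases were in Grip2, Chrm3 and Sez6. Grip2, a scaffold protein of glutamate receptors, had 11826, 36280.2 and 64844 CPM in primary tumor cells, against 428, 214 and 669 CPM in early lesion cells. Its mean in macrophages was 118990.0 CPM in the primary tumor experiment, against 226 CPM in the early lesion experiment, so both kinds of cell carried it in the primary tumor experiment. Sez6, a neuronal membrane protein, had 7.39, 14.2 and 11.1 CPM in primary tumor cells, against 0.669, 1.61 and 1.51 CPM in early lesion cells. In macrophages it averaged 3.87 CPM in the primary tumor experiment and 0.121 CPM in the early lesion experiment. Chrm3, a muscarinic acetylcholine receptor, had 18.4, 19.5 and 38.6 CPM in primary tumor cells, against 2.33, 2.51 and 1.83 CPM in early lesion cells.

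By the same rule, the largest decreases were in Dmbt1, Ccl11, Atg9b, Col15a1, Ccl2, Tnni2, Col6a3, Mmp3, Prl2c3 and Rcn3. Dmbt1, a secreted mucosal scavenger protein, had 1 count in the 3 primary tumor libraries together, against 3512 in the early lesion libraries, a ratio of early lesion to primary tumor of 2193 (95% interval 393 to 86654, which covers counting error only). Ccl11, the eosinophil chemokine eotaxin, had 0.4, 0.164 and 0.0402 CPM in primary tumor cells, against 12.3, 10.4 and 14.9 CPM in early lesion cells. Ccl2, the monocyte chemokine, had 0.28, 0.369 and 0.121 CPM in primary tumor cells, against 7.15, 10.3 and 17 CPM in early lesion cells (-5.46 ± 0.49, adjusted p = 6.24e-05). Col6a3, a chain of the microfibril collagen VI, had 3.28, 3.15 and 4.46 CPM in primary tumor cells, against 173, 82.9 and 100.2 CPM in early lesion cells. Col15a1, a basement membrane collagen, had 0.48, 0.942 and 0.724 CPM in primary tumor cells, against 37.1, 22.7 and 35.7 CPM in early lesion cells. Mmp3, the protease stromelysin 1, had 2.2, 2.91 and 1.49 CPM in primary tumor cells, against 91.2, 46.7 and 69 CPM in early lesion cells. Tnni2, a troponin of fast muscle, had 0.24, 0.41 and 0.241 CPM in primary tumor cells, against 11.6, 11.2 and 11.4 CPM in early lesion cells. Prl2c3, a proliferin of the prolactin family, averaged 0.674 ± 0.367 CPM in primary tumor cells and 21.2 ± 5.04 CPM in early lesion cells. Rcn3, an endoplasmic reticulum protein of collagen-making cells, had 0.559, 0.696 and 0.563 CPM in primary tumor cells, against 22.2, 11.2 and 17.3 CPM in early lesion cells. Atg9b lay at 0.559, 0.492 and 0.684 CPM in primary tumor cells, against 29, 25.9 and 23.9 CPM in early lesion cells, and its exons overlap those of Nos3, whose reads could not be separated from it. All 10 were also called lower in co-cultured primary tumor cells.

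Steep decreases were also found among marked genes. Apobr, a lipoprotein receptor, had 1.6, 1.52 and 1.21 CPM in primary tumor cells, against 68.5, 66 and 57.9 CPM in early lesion cells, and its exons overlap those of Cln3 and Il27. Lum, the matrix proteoglycan lumican, had 0.4, 0.369 and 0.241 CPM in primary tumor cells, against 14.5, 6.89 and 12.3 CPM in early lesion cells.

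**Figure D1:**
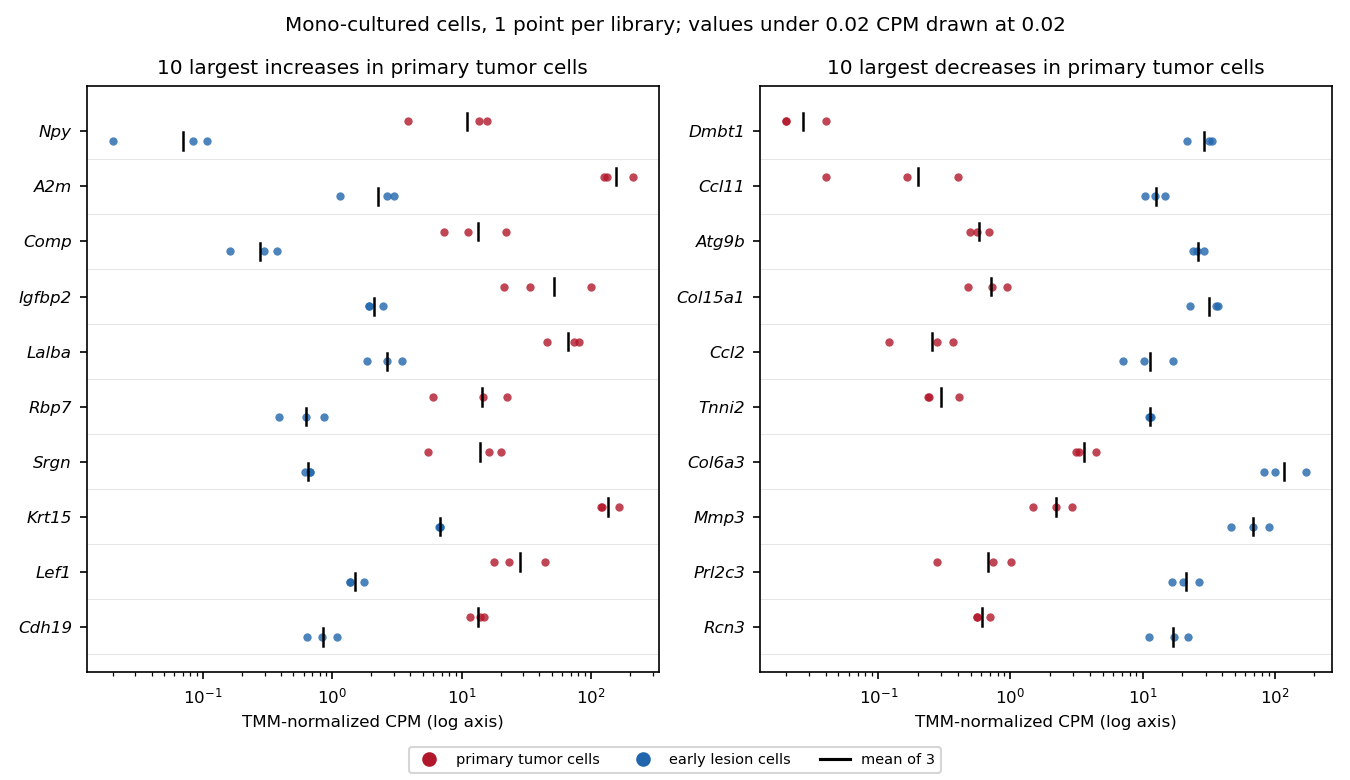
Levels in each mono-cultured library (TMM-normalized CPM, log axis) of the 10 unmarked genes with the largest increase (left) and the largest decrease (right), primary tumor cells in red above early lesion cells in blue, with the mean of 3 libraries as a bar. Values under 0.02 CPM are drawn at 0.02, and the genes were chosen among those whose groups do not overlap, as in the 20 drawn here.

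Gene lists of pathways and cell types separated into a few that moved mostly one way and many that were split. The lists with the lowest medians held matrix, protease, cytokine and stromal marker genes, and those with the highest held milk protein, MHC class II, respiratory, stress response, lipid synthesis and glycolytic genes. The members and their values follow.

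**Figure D2:**
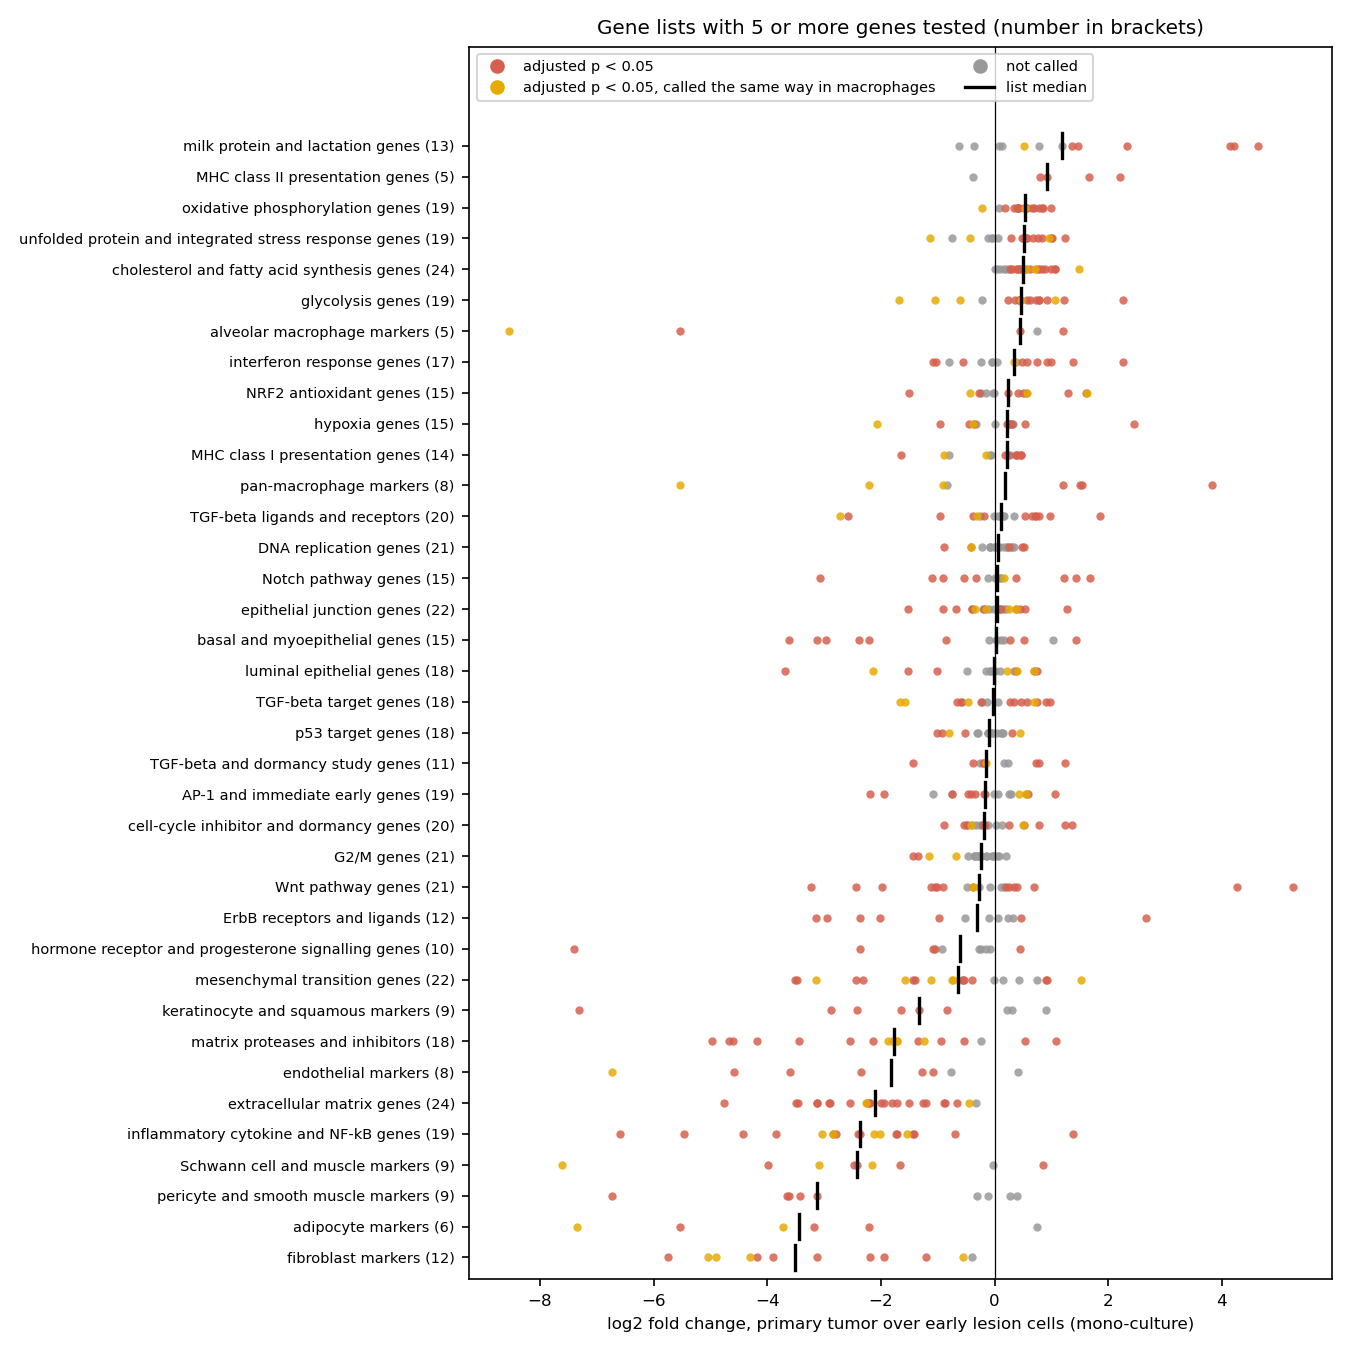
Log2 fold change (primary tumor over early lesion cells, mono-culture) of each tested member of the lists with 5 or more members tested, ordered by list median (black bar). Red points passed the test, yellow points passed it and were called the same way in macrophages, and grey points were not called. The medians run between 1.20 for milk protein and lactation genes and -3.51 for fibroblast markers.

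Extracellular matrix genes were lower in primary tumor cells almost throughout. Of 24 list members tested, none was higher and 23 were lower, 19 of them by at least 1 on the log2 scale, with a list median of -2.10 beside -0.01 over all genes. 2 of the 23, Nid1 and Lamc1, were marked, 5 were called the opposite way in macrophages, and 22 were also called lower in co-cultured cells. Thbs1, thrombospondin 1, was the member not called (122, 195 and 254 CPM in primary tumor cells, against 289, 199 and 226 CPM in early lesion cells).

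One set within this list is made by epithelial cells themselves: laminin 332 and the hemidesmosome and anchoring collagens that fix epithelium to its basement membrane. Lama3 had 45.2, 56 and 71.9 CPM in primary tumor cells, against 359, 298 and 352 CPM in early lesion cells (-2.54 ± 0.18, adjusted p = 3.54e-05). Lamb3 averaged 287 ± 8.65 CPM in primary tumor cells and 528 ± 17.7 CPM in early lesion cells. These 2 laminin genes differed by -2.54 (Lama3) and -0.88 (Lamb3) on the log2 scale. In each the groups did not overlap, as in 73.6% of all genes tested. Col17a1, the transmembrane collagen of hemidesmosomes, had 21.9, 43 and 40.5 CPM in primary tumor cells, against 318, 278 and 326 CPM in early lesion cells (-3.13 ± 0.26, adjusted p = 0.000109). Col7a1, the collagen of anchoring fibrils, had 133, 163 and 192 CPM in primary tumor cells, against 485, 430.4 and 476 CPM in early lesion cells. Itga6 and Itgb4 encode an integrin that binds laminin 332, and neither was called lower. Itga6 was higher, with 609, 642 and 608 CPM in primary tumor cells, against 521, 508 and 507 CPM in early lesion cells (0.28 ± 0.047, adjusted p = 0.00107). Itgb4 averaged 671 ± 107 CPM in primary tumor cells and 597 ± 18.4 CPM in early lesion cells and was not called (adjusted p = 0.19). Itga6 was called in mono-culture but not in co-culture (adjusted p = 0.122 there).

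The fibrillar collagens and small proteoglycans, made mainly by fibroblasts, were lower as well. Bgn, biglycan, had 5.59, 10.2 and 7.36 CPM in primary tumor cells, against 252, 157 and 217 CPM in early lesion cells (-4.76 ± 0.28, adjusted p = 2.82e-05). Col3a1 had 38, 51 and 16.3 CPM in primary tumor cells, against 443, 182 and 293 CPM in early lesion cells. Col1a1 averaged 183 ± 68.7 CPM in primary tumor cells and 701 ± 211 CPM in early lesion cells. Col5a2 had 15.4, 26.6 and 19.9 CPM in primary tumor cells, against 273, 157 and 248 CPM in early lesion cells. Col6a1 averaged 11.3 ± 4.18 CPM in primary tumor cells and 128 ± 34.3 CPM in early lesion cells. The type IV collagens Col4a1 and Col4a2 of the basement membrane were lower by -2.00 ± 0.15 and -1.71 ± 0.13. In early lesion cells, replicate 2 held the lowest level of Bgn, Col3a1, Col1a1, Col5a2 and Col6a1.

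Fibroblast markers were lower as well, and Col1a1, Col1a2, Col3a1 and Postn stand in both lists. Of 12 members tested (Pi16 had too few counts), 11 were lower and none higher, 4 of the 11 were marked, and the median was -3.51. Their summed level was 369 to 614 CPM in primary tumor cells and 1353 to 2370 CPM in early lesion cells. Pdgfrb, a growth factor receptor of fibroblasts and pericytes, had 3.0, 3.24 and 2.41 CPM in primary tumor cells, against 67.9, 35.7 and 52.8 CPM in early lesion cells (-4.17 ± 0.29, adjusted p = 3.94e-05). Dcn, the proteoglycan decorin, had 1.48, 1.52 and 1.61 CPM in primary tumor cells, against 55.3, 31.3 and 51 CPM in early lesion cells. Thy1 averaged 0.23 ± 0.185 CPM in primary tumor cells and 3.48 ± 1.93 CPM in early lesion cells. Pdgfra had 28.4, 23.9 and 18.7 CPM in primary tumor cells, against 39, 27.9 and 37.8 CPM in early lesion cells (-0.56 ± 0.18). Fap averaged 1.3 ± 0.293 CPM in primary tumor cells and 1.73 ± 0.477 CPM in early lesion cells and was not called. In bulk libraries, fewer cells of a type and less RNA per cell cannot be told apart, and the part of fibroblast RNA in the matrix result was not tested.

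Matrix proteases, their inhibitors and the plasminogen activators were mostly lower too: of 18 tested, 2 were higher and 15 lower, 5 of the 15 marked, with a median of -1.76. Mmp13, a collagenase, had 2.4, 2.38 and 2.21 CPM in primary tumor cells, against 63.4, 45.4 and 62 CPM in early lesion cells (-4.61 ± 0.16, adjusted p = 1.15e-06). Mmp9, a gelatinase, had 2.28, 4.06 and 6.64 CPM in primary tumor cells, against 79.2, 67.6 and 89.4 CPM in early lesion cells. Mmp10 averaged 0.349 ± 0.161 CPM in primary tumor cells and 9.06 ± 0.553 CPM in early lesion cells. In none of these did the groups overlap, as in 73.6% of all genes tested. Mmp14, the membrane-bound protease that activates pro-Mmp2, had 166, 126 and 160.4 CPM in primary tumor cells, against 388, 334 and 349 CPM in early lesion cells and was marked, as were Mmp2, Timp1, Plau and Plaur. The 2 increases were in Mmp15 and in the inhibitor Timp3. Mmp15 averaged 70.1 ± 10.9 CPM in primary tumor cells and 48.1 ± 3.56 CPM in early lesion cells. Timp3 had 148, 187 and 169.9 CPM in primary tumor cells, against 92.7, 77.7 and 68.9 CPM in early lesion cells. In co-culture Timp3 had a log2 fold change of 0.03 and was not called (adjusted p = 0.721).

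Genes of the mesenchymal transition, the switch by which epithelial cells gain motile and fibroblast-like features, were mostly lower: of 22 tested, 3 were higher and 14 lower, 6 of the 17 marked, with a median of -0.65. Prrx1, a transcription factor of mesenchyme, had 2.32, 2.01 and 1.61 CPM in primary tumor cells, against 25.8, 17.9 and 24.1 CPM in early lesion cells (-3.51 ± 0.19, adjusted p = 4.44e-06). Twist2, a transcription factor of this switch, had 0.48, 0.369 and 0.322 CPM in primary tumor cells, against 4.44, 2.83 and 5.88 CPM in early lesion cells. Zeb1, another one, averaged 1.71 ± 0.0873 CPM in primary tumor cells and 4.62 ± 1.33 CPM in early lesion cells. Itga5, the fibronectin receptor chain, had 5.59, 9.54 and 11.4 CPM in primary tumor cells, against 88.1, 61.7 and 83.8 CPM in early lesion cells and was marked. Cd44, a hyaluronan receptor, averaged 265 ± 12.7 CPM in primary tumor cells and 575 ± 42.2 CPM in early lesion cells and was marked too. The 3 increases were in Cdh2, Fn1 and Twist1. Cdh2, N-cadherin, had 37.3, 25.3 and 21.2 CPM in primary tumor cells, against 6.83, 9.0 and 13.7 CPM in early lesion cells, and was marked. Fn1, fibronectin, had 556, 741 and 731 CPM in primary tumor cells, against 455, 255 and 371 CPM in early lesion cells, and was no longer called without primary tumor library 3. Twist1 had 20.2, 11.2 and 9.21 CPM in primary tumor cells, against 7.66, 6.01 and 7.89 CPM in early lesion cells, and was not called without early lesion library 2 or 3. Vim, vimentin, had 154, 133 and 223 CPM in primary tumor cells, against 137, 115 and 128 CPM in early lesion cells and was not called (adjusted p = 0.0929).

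Cytokine and NF-kB genes were lower as a group. NF-kB is a family of transcription factors held in the cytoplasm by inhibitor proteins such as that of Nfkbia until cytokine or pathogen signals release it, and many of its targets encode chemokines or its own feedback inhibitors. Of 24 list members 19 had enough counts, and of those 18 were lower, 17 of them by at least 1 on the log2 scale, and 1, Lcn2, was higher; the median was -2.36. All 19 were also called in the same direction in co-cultured cells. 5 of the 18 decreases were marked (Cxcl1, Cxcl2, Cxcl16, Il6 and Lif).

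The chemokines and interleukins stood at low to moderate levels in early lesion cells and lower in every primary tumor library. Cxcl1, a neutrophil chemokine, had 8.07, 8.93 and 9.85 CPM in primary tumor cells, against 57.5, 75.5 and 88.3 CPM in early lesion cells (-3.04 ± 0.18, adjusted p = 1.26e-05). Cxcl5, of the same family, had 2.8, 1.76 and 1.45 CPM in primary tumor cells, against 21.8, 29.1 and 35.6 CPM in early lesion cells. Tnf had 2.0, 2.66 and 2.61 CPM in primary tumor cells, against 12.7, 18.2 and 19.3 CPM in early lesion cells. Il1a averaged 0.161 ± 0.106 CPM in primary tumor cells and 3.56 ± 0.148 CPM in early lesion cells. Il33, an alarmin, had 0.04, 0.041 and 0 CPM in primary tumor cells, against 4.55, 2.47 and 1.86 CPM in early lesion cells. In none of these 5 did the groups overlap, as in 73.6% of all genes tested. Early lesion library 3 held the highest level of Cxcl1, Cxcl5 and Tnf. Among growth factors of blood cells, Csf1, which maintains macrophages, had 15.5, 11.6 and 12.9 CPM in primary tumor cells, against 39.7, 29.6 and 38.3 CPM in early lesion cells. Csf3, which drives neutrophil output, averaged 4.66 ± 2.9 CPM in primary tumor cells and 15.4 ± 5.02 CPM in early lesion cells. The feedback genes were lower too. Nfkbiz, an atypical inhibitor of the IkB family, had 15.1, 15.5 and 15.2 CPM in primary tumor cells, against 67.2, 79.1 and 88.6 CPM in early lesion cells, with primary tumor libraries close to each other (-2.36 ± 0.10, adjusted p = 1.8e-06). Tnfaip3, which encodes the ubiquitin-editing enzyme A20, had 11.9, 13.6 and 13.5 CPM in primary tumor cells, against 34.9, 44.8 and 49.4 CPM in early lesion cells. Nfkbia averaged 49.3 ± 6.23 CPM in primary tumor cells and 80.3 ± 7.91 CPM in early lesion cells. Lcn2, the siderophore-binding lipocalin, ran the other way, with 9187, 9674 and 8494 CPM in primary tumor cells, against 2781, 4142 and 3623 CPM in early lesion cells (1.38 ± 0.14, adjusted p = 0.000102).

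The promoters of the list members were searched for the NF-kB consensus over the 250 bases before the start, on both strands. Of the 19 tested members, 13 had a RefSeq promoter (GRCm38.p6), and 6 of those (46.2%) held a match, against 1204 of 27025 genes (4.46%) among all RefSeq promoters of that length. The list was put together with known NF-kB genes in it, so a share above that of all genes follows partly from this choice. It says nothing of why the genes were lower, which was not tested. A match is a description of the letters and not of a factor bound there. The 160 bases before the start are shown for a chemokine, a growth factor and the 2 feedback inhibitors with a match, 5′ to 3′ on the gene's strand, with the matches in capitals.
Cxcl1 (chr5:90891085-90891244, plus strand): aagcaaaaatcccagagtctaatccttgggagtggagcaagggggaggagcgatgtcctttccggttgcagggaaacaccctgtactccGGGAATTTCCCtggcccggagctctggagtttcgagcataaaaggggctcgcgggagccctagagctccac
Csf1 (chr3:107760470-107760629, minus strand): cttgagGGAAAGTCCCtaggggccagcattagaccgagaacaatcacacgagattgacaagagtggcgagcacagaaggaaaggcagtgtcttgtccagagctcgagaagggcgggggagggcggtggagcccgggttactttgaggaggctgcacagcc
Nfkbia (chr12:55492648-55492807, minus strand): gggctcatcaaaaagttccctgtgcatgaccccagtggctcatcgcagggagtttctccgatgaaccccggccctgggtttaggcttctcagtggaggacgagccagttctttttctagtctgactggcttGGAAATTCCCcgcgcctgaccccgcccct
Tnfaip3 (chr10:19015411-19015570, minus strand): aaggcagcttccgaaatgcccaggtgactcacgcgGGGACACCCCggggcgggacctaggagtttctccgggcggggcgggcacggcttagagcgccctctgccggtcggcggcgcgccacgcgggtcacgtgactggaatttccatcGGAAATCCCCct
The matches began 71 and 70 bases before the start in Cxcl1, overlapping each other on opposite strands, 154 bases before it in Csf1, 29 bases before it in Nfkbia, and 125 and 12 bases before it in Tnfaip3. The 4 genes differed by -3.04 (Cxcl1), -1.43 (Csf1), -0.70 (Nfkbia) and -1.73 (Tnfaip3) on the log2 scale. The other 2 with a match were Cxcl2 (-2.84) and Il6 (-2.12).

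**Figure D3:**
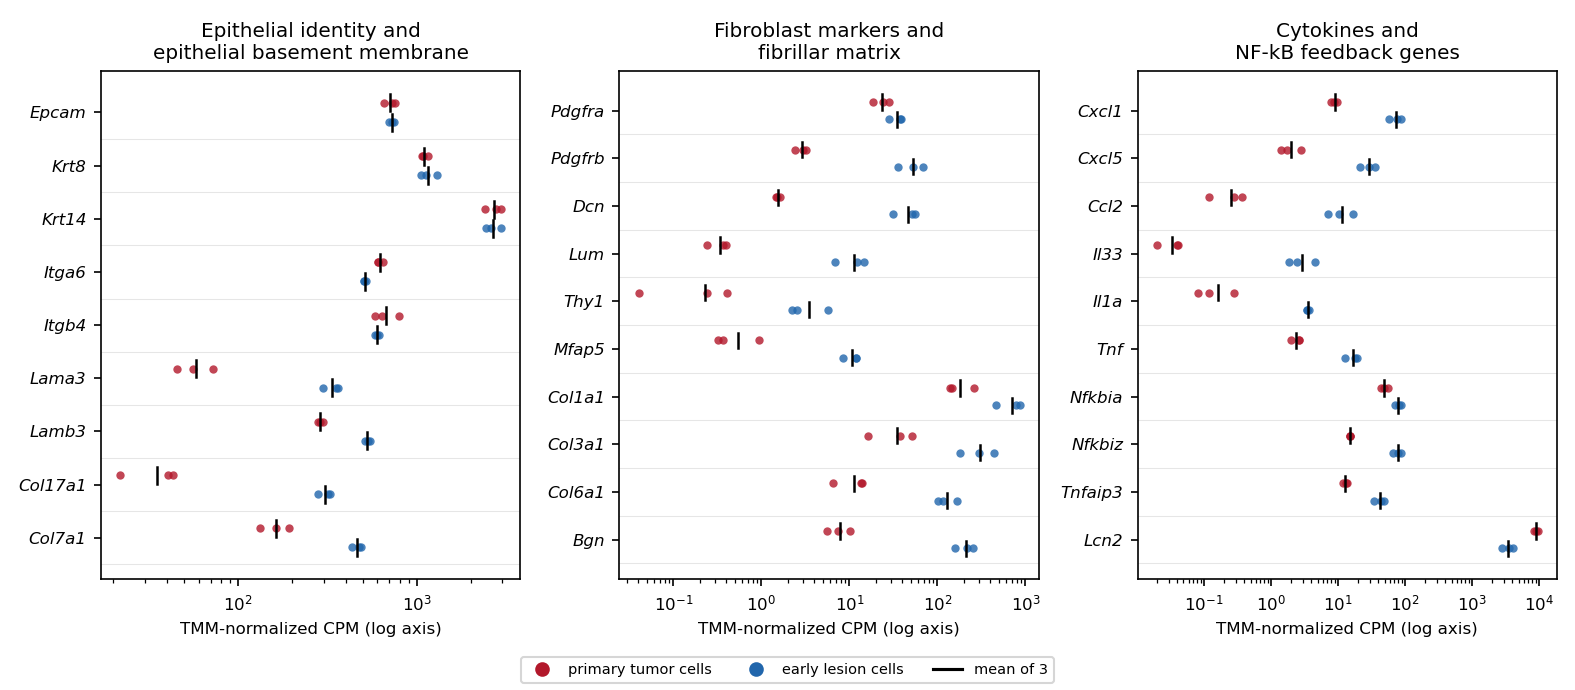
Levels in each mono-cultured library (TMM-normalized CPM, log axis) of epithelial and basement membrane genes (left), fibroblast markers and fibrillar matrix genes (centre) and cytokine and NF-kB feedback genes (right), primary tumor cells in red above early lesion cells in blue, with the mean of 3 libraries as a bar. Epcam, Krt8 and Krt14 overlap between the groups, Lama3, Lamb3 and Col17a1 are lower in all 3 primary tumor libraries, and Lcn2 is the cytokine-list gene that is higher.

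Of 18 luminal identity genes tested, 6 were higher (33.3%) and 4 lower (22.2%), beside 33.3% and 34.8% of all genes. The median was -0.01. The decreases were larger than the increases. Ly6a, which encodes the surface antigen Sca-1, had 3.96, 3.65 and 4.67 CPM in primary tumor cells, against 63.4, 49 and 46.2 CPM in early lesion cells (-3.69 ± 0.16, adjusted p = 2.3e-06). Krt19 had 106, 198 and 155 CPM in primary tumor cells, against 696, 673 and 663 CPM in early lesion cells and was marked. Cldn4, a tight junction protein, averaged 23.6 ± 4.64 CPM in primary tumor cells and 68 ± 20.7 CPM in early lesion cells. Aldh1a3, an aldehyde dehydrogenase of luminal progenitors, had 10.9, 10.5 and 8.65 CPM in primary tumor cells, against 24, 16.8 and 19.9 CPM in early lesion cells. The increases stayed under 1 on the log2 scale. Elf5, the transcription factor of the alveolar lineage, had 338, 312 and 235 CPM in primary tumor cells, against 162, 203 and 183 CPM in early lesion cells. Gata3, a transcription factor of all luminal cells, averaged 161 ± 4.39 CPM in primary tumor cells and 123 ± 5.78 CPM in early lesion cells and was marked. Prom1, a membrane glycoprotein of luminal cells, had 94.5, 88.1 and 106 CPM in primary tumor cells, against 64, 52.5 and 56.2 CPM in early lesion cells.

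Basal and myoepithelial genes were split: the contractile genes Acta2, Tagln, Cnn1 and Myh11 and the keratins Krt5 and Krt17 were lower, and Trp63, Dll1 and Itga6 were higher. Mylk, the myosin light chain kinase, had a log2 fold change of 0.04 and Oxtr, the oxytocin receptor, one of 1.03, and neither was called. Of 15 tested, 3 were higher (20%) and 6 lower (40%), beside 33.3% and 34.8% of all genes, with a median of 0.03. None was marked, but Krt5, Trp63, Cnn1 and Dll1 were not tested in macrophages and could not be. The higher genes numbered 5 without primary tumor library 1 and 6 with the length trend removed. Acta2, smooth muscle actin, had 3.12, 5.94 and 4.18 CPM in primary tumor cells, against 43.5, 44.5 and 74.4 CPM in early lesion cells (-3.62 ± 0.32, adjusted p = 0.000131). Tagln, an actin-binding protein, had 4.48, 7.66 and 8.24 CPM in primary tumor cells, against 29.9, 25.7 and 38.9 CPM in early lesion cells. The myosin heavy chain gene Myh11 averaged 0.174 ± 0.101 CPM in primary tumor cells and 1.56 ± 0.113 CPM in early lesion cells. Krt5 had 57.1, 99.7 and 184 CPM in primary tumor cells, against 496, 594 and 679 CPM in early lesion cells, and varied among the primary tumor libraries. Krt17 averaged 61.9 ± 16.2 CPM in primary tumor cells and 112 ± 16.1 CPM in early lesion cells. Neither was called in co-culture (adjusted p = 0.136 for Krt5 and 0.612 for Krt17). Trp63, the p53-family factor of basal cells, had 152, 169 and 177 CPM in primary tumor cells, against 120.2, 109.7 and 117 CPM in early lesion cells (0.52 ± 0.066). Dll1, a Notch ligand of mammary basal cells, had 158, 154 and 184 CPM in primary tumor cells, against 62.4, 63.2 and 57.7 CPM in early lesion cells (1.43 ± 0.077, adjusted p = 4.02e-06). Of 9 markers of pericytes and smooth muscle, which share Acta2 and Myh11 with this list, 5 were lower and none higher, and their summed level was 225 to 265 CPM in primary tumor cells and 320 to 357 CPM in early lesion cells.

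Of 9 tested markers of keratinocytes and squamous differentiation, 6 were lower, none of them marked, and none was higher, with a summed level of 186 to 296 CPM in primary tumor cells and 590 to 825 CPM in early lesion cells. Krt6a, a keratin of activated epithelium, had 112, 195 and 179 CPM in primary tumor cells, against 611, 424 and 487 CPM in early lesion cells. Its partner Krt16 averaged 6.92 ± 2.33 CPM in primary tumor cells and 50.8 ± 11.7 CPM in early lesion cells. The desmosomal cadherin Dsg3 had 26, 36.6 and 47.3 CPM in primary tumor cells, against 105, 81.8 and 88.4 CPM in early lesion cells. Krt10, a keratin of differentiating epidermis, had 7.23, 5.94 and 5.67 CPM in primary tumor cells, against 5.84, 5.27 and 5.17 CPM in early lesion cells and was not called. In the fits that left out 1 library, up to 2 members of this list were called higher, the 2 without primary tumor library 3.

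Of 22 epithelial junction genes tested, 7 were higher (31.8%) and 8 lower (36.4%), near the 33.3% and 34.8% of all genes. The median was 0.05. Cldn1, a tight junction claudin, had 80, 85.4 and 71.4 CPM in primary tumor cells, against 31.4, 34.8 and 31.3 CPM in early lesion cells (1.28 ± 0.079, adjusted p = 7.07e-06). Cdh1, E-cadherin, had 566, 505 and 518 CPM in primary tumor cells, against 611, 576 and 580.4 CPM in early lesion cells. That difference of -0.15 ± 0.058 was marked, and 5 of the 6 fits that left out 1 library did not call it, the exception being the fit without primary tumor library 1. Nor was it called without the filter on low counts, without robust dispersion or with all mono-culture groups in 1 fit. Tjp1, the scaffold protein ZO-1, had 141, 138 and 136 CPM in primary tumor cells, against 195, 174 and 178 CPM in early lesion cells. Cgn, cingulin, averaged 40.6 ± 0.822 CPM in primary tumor cells and 65.1 ± 6.36 CPM in early lesion cells.

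Milk protein genes were the list with the highest median, 1.20. Of 13 tested, 7 were higher and none lower, 6 of the 7 by at least 1 on the log2 scale. Of the 7, 1 was marked (Xdh), and 6 were also called higher in co-culture. Lalba, Wap, Csn3, Csn1s2a and Muc15 were not tested in macrophages and could not be marked. Lalba, the whey protein alpha-lactalbumin needed to make lactose, had 80.5, 74.1 and 46 CPM in primary tumor cells, against 1.85, 3.45 and 2.66 CPM in early lesion cells (4.63 ± 0.31, adjusted p = 3.96e-05). Wap, whey acidic protein, had 7.19, 9.87 and 4.71 CPM in primary tumor cells, against 0.321, 0.419 and 0.414 CPM in early lesion cells (4.22 ± 0.33). Csn3, kappa-casein, was already abundant in early lesion cells and had 7319.5, 8344 and 6542 CPM in primary tumor cells, against 1144, 1830.5 and 1464 CPM in early lesion cells (2.32 ± 0.18, adjusted p = 4.53e-05). Mfge8, a milk fat globule protein, had 3490.3, 4762 and 3570.3 CPM in primary tumor cells, against 1339, 1710.3 and 1533 CPM in early lesion cells. The other caseins varied more among libraries. Csn1s1 had 2772, 1935 and 886 CPM in primary tumor cells, against 344, 1156 and 941 CPM in early lesion cells. Csn2 had 50.5, 44 and 4.02 CPM in primary tumor cells, against 9.45, 32.7 and 14.6 CPM in early lesion cells. The groups overlapped in both, and neither was called. Csn1s2a had 17.6, 10.4 and 1.57 CPM in primary tumor cells, against 0.241, 0.879 and 0.502 CPM in early lesion cells. In primary tumor cells library 3 was the lowest for Lalba, Csn1s1, Csn1s2a and Csn2. Without primary tumor library 2, 1 member of the list was called lower. Of the genes of milk fat secretion, Plin2 had 495, 523 and 466 CPM in primary tumor cells, against 490.4, 479 and 438 CPM in early lesion cells. Btn1a1 averaged 9.87 ± 4.59 CPM in primary tumor cells and 15.2 ± 2.5 CPM in early lesion cells, and neither gene was called.

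Of 10 hormone signalling genes tested, 1, Tnfrsf11a, was higher (10%, beside 33.3% of all genes). The 4 lower genes were 40%, near the 34.8% of all genes, and the list median was -0.60. Pgr, which encodes the progesterone receptor, had too few counts. Areg, the EGF-family ligand amphiregulin that relays estrogen signals in the duct, had 3.16, 4.18 and 3.98 CPM in primary tumor cells, against 22.9, 15.6 and 19.9 CPM in early lesion cells (-2.37 ± 0.17, adjusted p = 1.51e-05). Wnt4, a progesterone target, had 6.43, 6.06 and 8.61 CPM in primary tumor cells, against 14.1, 15.3 and 14.4 CPM in early lesion cells. The RANK ligand gene Tnfsf11 had 0 in all 3 primary tumor libraries and 0.642, 0.335 and 1.0 CPM in early lesion cells. Its receptor gene Tnfrsf11a averaged 15.2 ± 1.67 CPM in primary tumor cells and 11.1 ± 1.48 CPM in early lesion cells. Esr1, the estrogen receptor, had 3.88, 2.58 and 3.26 CPM in primary tumor cells, against 4.42, 3.08 and 2.78 CPM in early lesion cells and was not called.

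Among ErbB genes 7 ligand genes passed the test and no tested receptor did. Egfr had 129, 125 and 122 CPM in primary tumor cells, against 137, 131 and 134 CPM in early lesion cells. Erbb3 averaged 123 ± 5.89 CPM in primary tumor cells and 118 ± 9.14 CPM in early lesion cells. Their log2 fold changes were -0.09 ± 0.045 for Egfr and 0.06 ± 0.066 for Erbb3. Of 12 list members tested, 2 were higher and 5 lower, none marked. Of the called genes, Areg, Ereg, Epgn, Tgfa and Nrg2 were not tested in macrophages and so could not be marked. Besides Areg, the ligand genes Ereg, Hbegf, Egf and Epgn were lower. Ereg, epiregulin, had 0.839, 1.11 and 0.764 CPM in primary tumor cells, against 8.25, 6.57 and 9.07 CPM in early lesion cells. Hbegf, a heparin-binding ligand, averaged 14.4 ± 2.01 CPM in primary tumor cells and 28.5 ± 2.89 CPM in early lesion cells. Egf had 0.36, 0.164 and 0.201 CPM in primary tumor cells, against 1.95, 2.03 and 1.71 CPM in early lesion cells. Epgn averaged 0.379 ± 0.205 CPM in primary tumor cells and 1.53 ± 0.2 CPM in early lesion cells. The medium itself held EGF protein. The 2 ligand genes that were higher were Tgfa and Nrg2. Tgfa averaged 73.5 ± 12.1 CPM in primary tumor cells and 53 ± 3.69 CPM in early lesion cells. Nrg2, a neuregulin, had 6.51, 5.82 and 7.36 CPM in primary tumor cells, against 0.803, 1.19 and 1.09 CPM in early lesion cells (2.66 ± 0.21, adjusted p = 2e-05). All 7 were called the same way in co-culture. The ligand genes Btc (0.33 ± 0.25) and Nrg1 (-0.51 ± 0.21) were not called.

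Genes of glycolysis, lipid synthesis and mitochondrial respiration were mostly higher in primary tumor cells, and most of the increases stayed under 1 on the log2 scale. Of 19 glycolysis genes, 15 were higher and 3 lower, with a median of 0.47, and 9 of the called genes went the opposite way in macrophages. Aldoc, an aldolase isoform, had the smallest adjusted p of the list and had 375, 362 and 373 CPM in primary tumor cells, against 75.6, 82.7 and 72.9 CPM in early lesion cells (2.26 ± 0.059, adjusted p = 2.42e-07). Aldoa had 1978, 2266 and 1849 CPM in primary tumor cells, against 871, 881 and 847 CPM in early lesion cells. Ldha, which makes lactate, averaged 1861 ± 195 CPM in primary tumor cells and 1087 ± 35.5 CPM in early lesion cells. Pfkp, a phosphofructokinase, had 168, 182 and 172 CPM in primary tumor cells, against 96.9, 104 and 102 CPM in early lesion cells. The 3 decreases were all marked. Slc16a3, a lactate exporter, had 10.2, 23.4 and 25.3 CPM in primary tumor cells, against 67.5, 56.4 and 65.8 CPM in early lesion cells. The hexokinase gene Hk2 averaged 24.9 ± 5.1 CPM in primary tumor cells and 37.8 ± 2.93 CPM in early lesion cells. Pfkfb3 averaged 9.02 ± 2.85 CPM in primary tumor cells and 18.6 ± 1.62 CPM in early lesion cells. Gapdh, often used as a reference for other genes, had 569, 769 and 773 CPM in primary tumor cells, against 346, 339 and 319 CPM in early lesion cells, and was marked.

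Of 24 genes of cholesterol and fatty acid synthesis, 18 were higher and none lower, with a median of 0.51. Of the 18, 3 were marked, 10 were called the opposite way in macrophages, and all were also higher in co-culture. Srebf1, the transcription factor that turns on fatty acid synthesis, had 775, 736 and 803 CPM in primary tumor cells, against 400.4, 394 and 370.1 CPM in early lesion cells (0.99 ± 0.056, adjusted p = 4.9e-06). The elongase Elovl5 had 129, 141 and 144 CPM in primary tumor cells, against 65.2, 64.6 and 67.8 CPM in early lesion cells. Idi1, an enzyme of the mevalonate pathway, averaged 292 ± 22.3 CPM in primary tumor cells and 139.6 ± 6.95 CPM in early lesion cells. Insig1, which holds SREBP proteins back when sterols are plentiful, had 70.7, 74.9 and 95.5 CPM in primary tumor cells, against 30, 26.7 and 29 CPM in early lesion cells and was marked. Hmgcs1, an early enzyme of the mevalonate pathway, averaged 159.8 ± 17.5 CPM in primary tumor cells and 158 ± 11.1 CPM in early lesion cells and was not called.

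Oxidative phosphorylation genes of the nucleus showed the same pattern, with 17 of 19 higher and 1, Cox5a, lower (median 0.53), all 17 also higher in co-culture. Of the called genes, 2 were marked and 10 went the opposite way in macrophages. Cox4i1, a subunit of cytochrome oxidase, had 576, 529 and 523 CPM in primary tumor cells, against 268, 278 and 272 CPM in early lesion cells (0.99 ± 0.054, adjusted p = 4.02e-06). Uqcrfs1, the Rieske protein of complex III, had 152, 146 and 138 CPM in primary tumor cells, against 78.7, 81.6 and 80 CPM in early lesion cells. Atp5a1, of the ATP synthase, averaged 1164 ± 17.5 CPM in primary tumor cells and 718 ± 5.99 CPM in early lesion cells. Cox5a had 66.8, 67.6 and 62.7 CPM in primary tumor cells, against 69.9, 79 and 79.6 CPM in early lesion cells, was marked, and was not called without either of early lesion libraries 2 and 3 or without primary tumor library 3. With the trend over exonic length removed, 16 rather than 17 were higher.

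**Figure D4:**
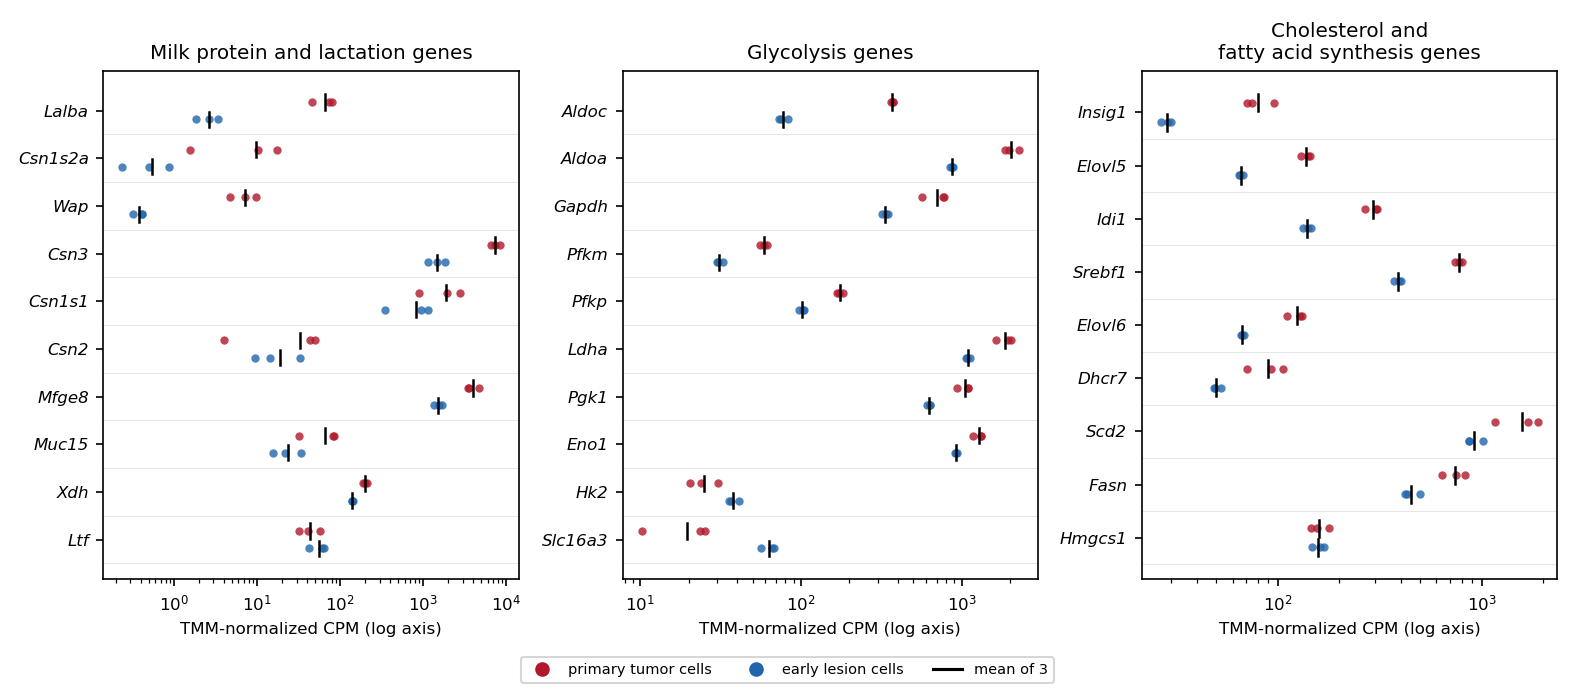
Levels in each mono-cultured library (TMM-normalized CPM, log axis) of milk protein and lactation genes (left), glycolysis genes (centre) and lipid synthesis genes (right), primary tumor cells in red above early lesion cells in blue, with the mean of 3 libraries as a bar. Lalba, Csn3 and Aldoc are higher in all 3 primary tumor libraries, Csn1s1 and Csn2 overlap between the groups, and Hk2 and Slc16a3 are lower in all 3.

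Genes of the unfolded protein and integrated stress responses, which act when misfolded protein builds up or amino acids run short, were mostly higher. Of 19 tested, 12 were higher and 2 lower, with a median of 0.51. Hspa5, the main chaperone of the endoplasmic reticulum, had 992, 1091 and 1109.8 CPM in primary tumor cells, against 741, 776 and 759 CPM in early lesion cells. Xbp1, a transcription factor of secretory cells, averaged 1012 ± 140.0 CPM in primary tumor cells and 593 ± 52.9 CPM in early lesion cells. Asns, asparagine synthetase, had 52.6, 61.5 and 59.4 CPM in primary tumor cells, against 30.5, 27.8 and 30.6 CPM in early lesion cells and was marked. Ddit3, which encodes the stress factor CHOP, had 5.24, 4.34 and 4.95 CPM in primary tumor cells, against 10.4, 10.03 and 11.5 CPM in early lesion cells and was marked as well. Atf4, the factor that induces it, averaged 188 ± 18.7 CPM in primary tumor cells and 194 ± 6.36 CPM in early lesion cells and was not called. Antioxidant genes under NRF2 numbered 8 higher and 3 lower of 15. Nqo1, a quinone reductase, had 251, 159 and 154 CPM in primary tumor cells, against 57.1, 64.5 and 63.6 CPM in early lesion cells (1.61 ± 0.20). Gstm1, a glutathione transferase, averaged 34.8 ± 1.57 CPM in primary tumor cells and 11.2 ± 0.454 CPM in early lesion cells and was marked. With the length trend removed, 5 rather than 3 of these were lower. Hypoxia genes numbered 5 higher (33.3%) and 5 lower (33.3%) of 15, near the 33.3% and 34.8% of all genes. Egln3, a prolyl hydroxylase of the hypoxia response, had 28, 39.8 and 62.8 CPM in primary tumor cells, against 8.97, 7.68 and 7.18 CPM in early lesion cells. Vegfa, the vascular growth factor, had 19.9, 18.1 and 26.7 CPM in primary tumor cells, against 96.4, 81.8 and 94.1 CPM in early lesion cells and was marked.

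Few proliferation genes were called in mono-culture. Of 21 G2/M genes, none was higher and 4 were lower (median -0.25), and of 21 DNA replication genes, 3 were higher and 3 lower (median 0.06). Mki67, a marker of cycling cells, had 56.1, 80.5 and 122 CPM in primary tumor cells, against 273, 198 and 229 CPM in early lesion cells (-1.43 ± 0.29, adjusted p = 0.00593), and its groups did not overlap. Cenpe, a mitotic kinesin, had 16.7, 24 and 32.7 CPM in primary tumor cells, against 71.7, 53.7 and 60.4 CPM in early lesion cells. Cenpf averaged 31.5 ± 10.4 CPM in primary tumor cells and 70 ± 12.1 CPM in early lesion cells and was marked. Top2a, the topoisomerase of dividing cells, had 120.4, 172 and 213 CPM in primary tumor cells, against 263, 198 and 237 CPM in early lesion cells, overlapped and was not called (adjusted p = 0.102). Pcna, the sliding clamp of replication, had 158, 187 and 211 CPM in primary tumor cells, against 138, 124 and 134 CPM in early lesion cells. Pole, a replicative polymerase, averaged 14.2 ± 3.13 CPM in primary tumor cells and 26.4 ± 3.65 CPM in early lesion cells. Among primary tumor libraries, replicate 1 was the lowest and replicate 3 the highest for these 6 genes. The counts rest on those libraries: without primary tumor library 3, 10 G2/M genes were lower, and without primary tumor library 1, 8 DNA replication genes and 1 G2/M gene were higher. In co-cultured cells 17 of the 21 DNA replication genes were higher and none lower, and 5 G2/M genes were higher and 3 lower. The difference between mono-culture and co-culture depended on whether same-numbered libraries of a stage were paired. Unpaired, it was called in none of the 21 DNA replication genes by edgeR (15 had an unadjusted p under 0.05), and in 21 of 14273 genes (0.147%) over all. With a replicate block within each stage, chosen after seeing the data, it was called in 1113 genes (7.80%), 4.14% with a smaller and 3.66% with a larger fold change in mono-culture. Among these were 19 of the 21 DNA replication genes and 17 of the 21 G2/M genes, all with a smaller fold change in mono-culture. Mcm6, a subunit of the replicative helicase, had log2 fold changes of 0.35 in mono-culture and 1.09 in co-culture (paired difference -0.78 ± 0.086, adjusted p = 0.000333), and Top2a had -0.46 and 0.20 (-0.71 ± 0.096, adjusted p = 0.00154). Same-numbered libraries deviated together in 5 of the 6 pairs, early lesion pair 3 being the exception.

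Of 20 cell-cycle inhibitors and dormancy genes, 6 were higher (30%) and 6 lower (30%), near the 33.3% and 34.8% of all genes. Gas1, a growth arrest gene, had 93.4, 100.3 and 115 CPM in primary tumor cells, against 41.1, 38.9 and 39.6 CPM in early lesion cells (1.37 ± 0.079, adjusted p = 5.44e-06). Nr2f1, an orphan nuclear receptor known for its part in tumor cell dormancy, was low, at 2.36, 4.1 and 1.61 CPM in primary tumor cells, against 1.47, 1.03 and 0.916 CPM in early lesion cells (1.24 ± 0.38, adjusted p = 0.018). Its call was lost without early lesion library 2 or 3 or primary tumor library 2, and in co-culture its fold change was -0.48 and not called (adjusted p = 0.313). Cdkn1b, the cell-cycle inhibitor p27, had 90.2, 90.1 and 84.3 CPM in primary tumor cells, against 104, 99.8 and 99.5 CPM in early lesion cells (-0.20 ± 0.048, adjusted p = 0.00669). Cdkn1a, p21, had 125, 147 and 187 CPM in primary tumor cells, against 149.9, 182 and 164 CPM in early lesion cells and was not called. Of 18 p53 target genes, 2 were higher and 4 lower, among them Mdm2 and Zmat3. Mdm2, which marks p53 for breakdown, had 82.2, 87.5 and 101 CPM in primary tumor cells, against 126, 137 and 127 CPM in early lesion cells. Zmat3 averaged 48.2 ± 6.78 CPM in primary tumor cells and 91.5 ± 7.49 CPM in early lesion cells. Both went the opposite way in macrophages. Without primary tumor library 3, 7 p53 targets were lower, and with the length trend removed 1 was higher.

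TGF-beta ligands went in different directions. Tgfb2 had 23.5, 34.1 and 33.9 CPM in primary tumor cells, against 17.1, 18.1 and 18 CPM in early lesion cells (0.78 ± 0.14, adjusted p = 0.0016). Tgfb3, the most abundant of the 3 ligands by CPM, had 814, 626 and 480.2 CPM in primary tumor cells, against 385, 383 and 385 CPM in early lesion cells (0.74 ± 0.18, adjusted p = 0.00914). Tgfb1 had 50.6, 49.9 and 56.3 CPM in primary tumor cells, against 69.2, 65 and 69.8 CPM in early lesion cells and was lower (-0.38 ± 0.063, adjusted p = 0.000903). Tgfbr1, the type I receptor, had 65.3, 62.6 and 56.5 CPM in primary tumor cells, against 72, 65.8 and 72.2 CPM in early lesion cells (-0.19 ± 0.068, adjusted p = 0.0379). It was not called without early lesion library 1 or 3 or without primary tumor library 2 or 3, with the replicate block, with all mono-culture groups in 1 fit or with the length trend removed. Tgfbr2 had 120.2, 100.2 and 108 CPM in primary tumor cells, against 105, 90.1 and 95.6 CPM in early lesion cells. Tgfbr3 averaged 27.9 ± 5.03 CPM in primary tumor cells and 33.4 ± 2.12 CPM in early lesion cells. Neither was called. Over the ligand and receptor list, 7 of 20 were higher (35%) and 6 lower (30%), near the 33.3% and 34.8% of all genes. Inhba, the activin A subunit, had 7.27, 11.1 and 11 CPM in primary tumor cells, against 75.8, 53.2 and 65.3 CPM in early lesion cells and was marked (-2.72 ± 0.20). Inhbb, the activin B subunit, had 957, 850.0 and 889 CPM in primary tumor cells, against 579, 549.9 and 574 CPM in early lesion cells (0.66 ± 0.058). Ltbp2, a matrix protein of the latent TGF-beta binding family, had 301, 352 and 280.1 CPM in primary tumor cells, against 153, 157 and 163 CPM in early lesion cells. Of 18 target genes 8 were higher (44.4%) and 6 lower (33.3%). Pmepa1, a feedback inhibitor of the pathway, had 1586, 1484 and 1355 CPM in primary tumor cells, against 1018, 1108 and 1077 CPM in early lesion cells. Smad7, the inhibitory Smad, had 25.4, 33.2 and 40.6 CPM in primary tumor cells, against 51.9, 48.4 and 55.8 CPM in early lesion cells, and went the opposite way in macrophages. In a list of 11 genes of TGF-beta and dormancy, Tgfb2, Tgfb3 and Nr2f1 were higher and 5 were lower (Tgfb1, Tgfbr1, Cdkn1b, Mki67 and Cdh1). The lower genes numbered 3 rather than 5 without early lesion library 1 or 3 or primary tumor library 2 or 3.

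Of 21 Wnt pathway genes tested, 7 were higher (33.3%) and 9 lower (42.9%), beside 33.3% and 34.8% of all genes, and 1 was marked. Axin2, a direct target and feedback inhibitor of beta-catenin signalling, had 0.679, 0.778 and 0.643 CPM in primary tumor cells, against 7.39, 6.26 and 6.15 CPM in early lesion cells (-3.23 ± 0.19, adjusted p = 5.76e-06). Lgr5, a receptor for R-spondins, had 0.599, 0.614 and 0.362 CPM in primary tumor cells, against 2.11, 1.8 and 2.33 CPM in early lesion cells. The ligand Wnt11 averaged 0.511 ± 0.0613 CPM in primary tumor cells and 2.81 ± 0.439 CPM in early lesion cells. Dkk1, a secreted Wnt inhibitor, had 2.08, 1.56 and 2.61 CPM in primary tumor cells, against 0.0268, 0.0209 and 0.118 CPM in early lesion cells, and Lef1, described above, rose with it. Ctnnb1, beta-catenin itself, had 1199.5, 1257 and 1391 CPM in primary tumor cells, against 1405, 1358 and 1293 CPM in early lesion cells and was not called. In the Notch list 5 of 15 were higher (33.3%) and 5 lower (33.3%), near the shares of all genes. The target Hey1 had 439, 396 and 307 CPM in primary tumor cells, against 144, 177 and 169.7 CPM in early lesion cells. The ligand Jag1 had 83.9, 105 and 137 CPM in primary tumor cells, against 233, 216 and 248 CPM in early lesion cells. Heyl averaged 1.23 ± 0.431 CPM in primary tumor cells and 10.3 ± 1.37 CPM in early lesion cells. Without early lesion library 2 or 3, 3 Notch genes rather than 5 were higher.

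Immediate early genes, which respond within minutes to growth factor and stress signals, numbered 4 higher and 8 lower of 19. Fosl1, an AP-1 factor, had 2.76, 3.81 and 4.42 CPM in primary tumor cells, against 17, 11.9 and 13.4 CPM in early lesion cells (-1.94 ± 0.20, adjusted p = 7.7e-05). Klf4, a zinc finger factor, had 5.28, 4.87 and 6.39 CPM in primary tumor cells, against 21.7, 25.6 and 28.6 CPM in early lesion cells. Ier3 was higher, with 335, 379 and 367 CPM in primary tumor cells, against 132, 191 and 192 CPM in early lesion cells. Fos itself had 231, 221 and 238 CPM in primary tumor cells, against 156, 254 and 253 CPM in early lesion cells and was not called. Without early lesion library 2 or 3, 5 were lower.

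Of 17 interferon response genes tested in mono-culture, 8 were higher (47.1%) and 3 lower (17.6%), beside 33.3% and 34.8% of all genes. The list median was 0.34. Oas1a, an antiviral enzyme that makes oligoadenylates, had 4.8, 5.86 and 10.2 CPM in primary tumor cells, against 2.11, 1.3 and 0.916 CPM in early lesion cells (2.26 ± 0.39, adjusted p = 0.00132). Rtp4, another interferon-induced gene, had 15.2, 15.9 and 24.3 CPM in primary tumor cells, against 7.31, 6.95 and 7.03 CPM in early lesion cells. Stat2, which carries the type I interferon signal to the nucleus, had 10.6, 11.3 and 11.9 CPM in primary tumor cells, against 23.5, 24.6 and 20.6 CPM in early lesion cells (-1.02 ± 0.093, adjusted p = 4.07e-05). Library 3 was the highest of the primary tumor libraries for Oas1a, Rtp4 and Isg15 (2.84, 3.24 and 6.72 CPM in primary tumor cells, against 2.3, 1.84 and 2.28 CPM in early lesion cells). In co-culture 1 of the 17 was higher and 8 lower, and the difference between the cultures was called in 1 gene, Rtp4, whose fold change was -0.62 in co-culture (difference 1.99 ± 0.30, adjusted p = 0.0269; 1.97 ± 0.37, adjusted p = 0.0308 with the block). With the replicate block Ifi44 was called as well. Without early lesion library 1, 2 or 3, the higher genes numbered 5, 5 and 4, and without primary tumor library 3 the lower genes numbered 6.

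Of 14 genes of MHC class I presentation, 7 were higher (50%) and 3 lower (21.4%), beside 33.3% and 34.8% of all genes. With the length trend removed, 4 were higher. The increases were small, up to 0.47 for H2-K1, and the larger decreases were in H2-Q7 (-1.65) and H2-T23 (-0.89), both nonclassical class I chains whose reads may be shared with near-identical paralogs. H2-K1, a classical class I chain, had 236, 235 and 231 CPM in primary tumor cells, against 167, 168 and 171 CPM in early lesion cells (0.47 ± 0.041, adjusted p = 3.29e-05). Psmb8, a subunit of the immunoproteasome, had 27.4, 34.5 and 26.9 CPM in primary tumor cells, against 20.7, 22.5 and 21 CPM in early lesion cells. MHC class II genes were at low levels in both groups, and 4 of 5 tested were higher. H2-Eb1 had 2.52, 3.32 and 2.25 CPM in primary tumor cells, against 0.776, 0.523 and 0.443 CPM in early lesion cells. Ciita, the class II transactivator, averaged 2.29 ± 0.578 CPM in primary tumor cells and 1.32 ± 0.405 CPM in early lesion cells. Without early lesion library 1 or 2 or primary tumor library 2, 2 of the 5 were higher.

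Markers of leukocytes, vessels and fat were mostly at low levels beside Epcam, but for Plet1 of the alveolar macrophage list. Among pan-macrophage markers, of which 8 of 13 had enough counts, 4 were higher and 3 lower, all 3 marked. Cybb, an oxidase subunit of phagocytes, had 6.19, 6.27 and 6.88 CPM in primary tumor cells, against 0.375, 0.795 and 0.118 CPM in early lesion cells. Ptprc, which encodes the leukocyte antigen CD45, averaged 2.22 ± 0.481 CPM in primary tumor cells and 0.784 ± 0.108 CPM in early lesion cells. Cd68 ran the other way, with 0.599, 0.696 and 0.523 CPM in primary tumor cells, against 2.28, 2.95 and 3.25 CPM in early lesion cells, and was marked. The summed level of the list was 16.6 to 19.5 CPM in primary tumor cells and 9.04 to 19.2 CPM in early lesion cells, Fcgr1 was at 0 in all primary tumor libraries, and 5 members were lower without early lesion library 3. Of the alveolar macrophage markers, 5 of 12 had enough counts. Chil3, a chitinase-like protein of these cells, had 0.04, 0 and 0 CPM in primary tumor cells, against 5.14, 13.8 and 0.355 CPM in early lesion cells, uneven among early lesion libraries. Marco, Car4, Ear1, Ear2 and Itgax had no count in any primary tumor library. 2 of the 5 were higher (Plet1 and Krt79) and 2 lower (Chil3 and Fabp4), and Chil3 was not called without primary tumor library 1 or 3. The list summed to 401 to 483 CPM in primary tumor cells and 203 to 250 CPM in early lesion cells, most of it from Plet1 (327, 414 and 326 CPM in primary tumor cells, against 134, 177 and 153 CPM in early lesion cells). The lymphocyte gene Cd3d had 0.639, 1.02 and 2.29 CPM in primary tumor cells, against 24.8, 32 and 33.7 CPM in early lesion cells and was marked, while its partner Cd3g had 0 counts in all 6 libraries. Lymphocyte markers summed to 1.88 to 3.26 CPM in primary tumor cells and 26.3 to 36.3 CPM in early lesion cells, with 1 of 3 higher and 2 lower. Most of the early lesion sum came from the marked gene Cd3d. Endothelial markers summed to 4.71 to 5.35 CPM in primary tumor cells and 9.29 to 15.3 CPM in early lesion cells, with 6 of 8 lower and, without early lesion library 1, 1 higher. Adipocyte markers summed to 3.94 to 5.99 CPM in primary tumor cells and 23.9 to 40.9 CPM in early lesion cells, with 5 of 6 lower and, without primary tumor library 3, 1 higher. Lpl, lipoprotein lipase, had 1.52, 2.33 and 1.89 CPM in primary tumor cells, against 34.2, 17.9 and 23.6 CPM in early lesion cells. Among 9 Schwann cell and muscle markers, with sums of 447 to 587 CPM in primary tumor cells and 311 to 373 CPM in early lesion cells, 7 were lower and 1, Sox10, higher. Sox10, a factor of neural crest and also of mammary progenitor cells, had 394, 448 and 536 CPM in primary tumor cells, against 222, 283 and 257 CPM in early lesion cells (0.85 ± 0.13). Neutrophil markers summed to 21.8 to 32.2 CPM in primary tumor cells and 30.4 to 54.8 CPM in early lesion cells, with 2 of 3 lower. Lung epithelial markers summed to 1.29 to 1.68 CPM in primary tumor cells and 5.32 to 6.32 CPM in early lesion cells, with 2 of 3 lower. A marker near 0 in 1 group could pass the filter on counts through the other group alone, which favors a call in that direction. Cfd of the adipocyte list, for example, had 0 counts in primary tumor libraries and 75 in early lesion libraries. The numbers of such markers called higher or lower therefore describe levels and are not a test. The part of these cell types in the results above was not tested.

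Of the mono-culture calls, 9185 were tested in co-cultured cells. Among them 7568 (82.4%) were called in the same direction, and 15 were called in the opposite one. Those 7568 were 54.7% of the genes tested in mono-culture. Co-cultured and mono-cultured primary tumor libraries of the same number deviated together from their group means (correlation over genes of 0.622, 0.522 and 0.675), as did early lesion libraries 1 and 2 (0.483 and 0.568) but not 3 (0.0513), so the co-culture libraries are not independent of the mono-culture ones, and they share the experiment as well.

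Of the mammary calls tested in macrophages, 27.3% were called in the same direction there and 31.6% in the opposite one. These shares lie near the 27.4% and 30.2% of all genes tested in macrophages that were called higher and lower. A further 1461 calls could not be compared because the gene was not tested in macrophages. The difference between stages relative to macrophages was called in 8314 of 14773 genes (56.3%).

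**Figure D5:**
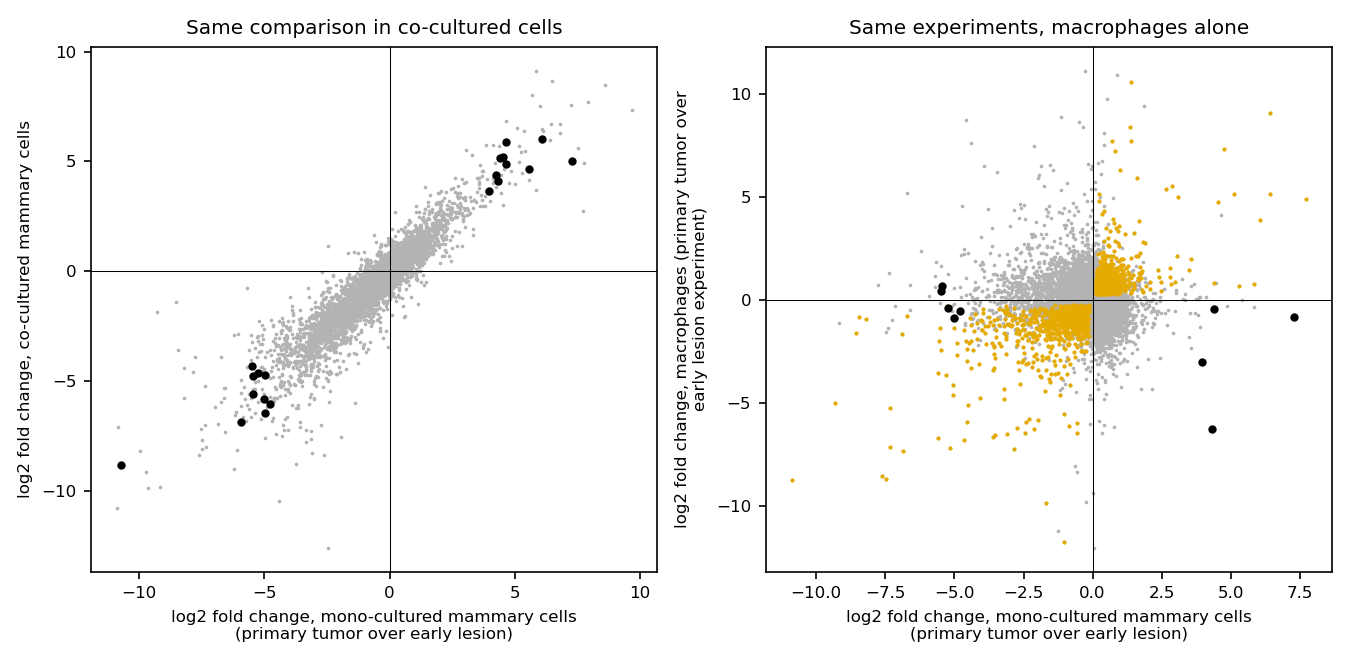
Log2 fold change in mono-cultured mammary cells (x axis) against that in co-cultured mammary cells (left) and in mono-cultured macrophages of the same experiments (right), 1 point per gene tested in both. Yellow points are genes called the same way in mammary cells and macrophages (marked), black points the 20 unmarked genes with the largest changes where tested. The co-culture points run along a rising band, with 15 calls opposite in sign, and the macrophage points fill all 4 quadrants.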

How the data were processed

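Bulk RNA was measured in 22 libraries, and the 6 of mono-cultured mammary cells are compared here. The authors deposited raw read counts per gene symbol, with each experiment in its own table. Per the labels' protocols RNA was extracted with RNeasy and libraries were made with NEBNext Ultra after oligo(dT) selection. Per the submitters' processing notes the processing named bcl2fastq 2.17 and the build mm10. How reads were aligned and assigned to genes, and whether strand was used, was not given in the sources used, so counts of overlapping genes and near-identical paralogs are uncertain.

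Groups and replicate numbers came from the labels, and tables were joined by symbol. Gene class, overlaps and exonic length came from GENCODE vM21, in which 31442 of the symbols were found, and list members were looked up under older symbols where needed. All symbols entered the fit, made with edgeR 4.0.16 in R 4.3.3 (filterByExpr with a minimum count of 10, TMM, robust quasi-likelihood F test, Benjamini-Hochberg adjustment over all 14682 symbols tested, threshold 0.05), and the left-out classes were dropped from counts of calls afterwards. CPM values were computed from the deposited counts. Macrophages, co-cultured cells and the difference between cell types were fitted in the same way, and the difference between cultures in 1 fit of 4 groups. Ratios with fewer than 4 counts in a group have exact 95% counting intervals. The procedure was tested on simulated counts with 200 changed genes.

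Named genes were the 11 of the TGF-beta and dormancy list and up to 3 called members per list and direction with the smallest adjusted p. Also named were the 10 higher and 10 lower unmarked and the 3 higher and 3 lower marked genes with the largest change. These had an adjusted p under 0.05, 10 CPM or more in the higher group, no overlap and no provisional symbol. Some genes that this rule chose are not reported here. Other list members were named for their role, after their values were seen. The members and lists were chosen with earlier results of these data known. Replicate pairs differed by 8.64 to 121 in chi-square per gene, beyond sampling noise. Promoter sequences came from RefSeq (GRCm38.p6). Alternatives were RLE size factors, DESeq2 1.42.0, no filter, a replicate block, non-robust dispersion, all groups in 1 fit, removal of the left-out classes and Grip2 before normalization, a log2 change of at least 1, and leaving out each library. Removal of a lowess trend over exonic length, the replicate block within each stage for the difference between cultures, and the counts of list members under each setting were added after seeing the data.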

Additional observations from a re-analysis of the deposited data

Results flagged for a closer look

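Opposite signs in mammary cells and macrophages were looked for only in the TGF-beta and dormancy list and in the genes with the largest changes. In 8 of those genes the difference between the experiments had opposite signs. The difference between these differences passed the test in each (edgeR quasi-likelihood test, Benjamini-Hochberg adjustment). Beside them, 2517 of all genes tested in mono-culture (18.2%) were called the opposite way in macrophages. The genes with the largest changes were picked by their mammary fold change. The unmarked ones also had no macrophage call in the same direction. For these the test partly follows from the choice, and its p-values are descriptive only. Values are log2 fold changes, primary tumor over early lesion experiment. Cdh19 was higher in primary tumor cells (3.95) and lower in the macrophages of that experiment (-3.04), a difference of 7.10 ± 0.85 (adjusted p = 8.86e-06). Npy stood at 7.29 in mammary cells and -0.86 in macrophages, a difference of 8.22 ± 0.94 (adjusted p = 2.02e-05). Srgn stood at 4.4 and -0.46, a difference of 4.95 ± 0.68 (adjusted p = 0.000224), with means of 18 and 24.5 CPM in macrophages of the primary tumor and the early lesion experiment. Krt15 stood at 4.32 and -6.29, with a fitted difference of 11.54 that is no bound, since it rests on a mean of 0 CPM in the macrophages of the primary tumor experiment, against 0.28 CPM in those of the early lesion experiment.

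Ccl2 was lower in primary tumor cells (-5.46) and stood at 0.66 in macrophages, a difference of -6.02 ± 0.96 (adjusted p = 0.000116). Col15a1 was at -5.47 and 0.43, a difference of -5.80 ± 0.33 (adjusted p = 1.5e-08). Erbb2, at 0.24 in mammary cells, was at -1.03 in macrophages, a difference of 1.37 ± 0.27 (adjusted p = 0.000594), and Tgfbr2, at 0.17, was at -0.58, a difference of 0.86 ± 0.15 (adjusted p = 0.000238). Both of these were called lower in macrophages and not called in mammary cells. Ccl2 and Srgn were called in mammary cells and not in macrophages (adjusted p = 0.395 and 0.0711 there).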

How the results depend on the processing

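With 15 other settings, none of the 201 genes named by rule changed sign, and 198 were called in the original setting. RLE size factors, DESeq2 and removal of the left-out classes and Grip2 before normalization lost none of those calls. All mono-culture groups in 1 fit lost 6 (Bnip3, Cdh1, Cox5a, Erap1, Slc7a11 and Tgfbr1), no filter lost 5 (Cdh1, Chil3, Erap1, Tk1 and Twist1), the replicate block lost 3 (Erap1, H2-DMa and Tgfbr1) and non-robust dispersion lost 1 (Cdh1). Removing the trend over exonic length lost 10 of them (B2m, Ddit4, Erap1, Fen1, Perp, Psmb10, Rfc4, Slc7a11, Tgfbr1 and Twist1). Leaving out each library in turn gave 4070 to 4725 genes higher and 4322 to 4961 lower in primary tumor cells, 4732 to 7476 called in macrophages, 7420 to 8251 called relative to macrophages, 7952 to 8828 called in co-culture, 7018 to 7544 called the same way in mono-culture and co-culture, and 1439 to 2319 marked. Marks thus depend on the 2 macrophage libraries of the early lesion experiment. Requiring a log2 change of at least 1 left 769 higher and 2192 lower genes, 2938 called in macrophages, 4978 relative to macrophages, 2899 in co-culture, 2267 in both cultures and 322 marked, as this setting removes small changes by construction. Counting as marked any gene with the same sign and a log2 change of at least 1 in macrophages, with no test, gave 868. The replicate numbers did not pair primary tumor with early lesion libraries (correlations of -0.24, -0.0279 and 0.00366), and no library correlated best with its own number; with the replicate block 4328 genes were higher and 4536 lower, and 2 milk protein genes were called lower in place of none. With a replicate block within each stage, the difference between mono-culture and co-culture was called in 1113 genes, against 21 without it. Genes at 0 counts in primary tumor libraries (27100741 to 27595567 counts in all) may lie below what this depth detects.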
